A study of Mus musculus with 9 samples.

Results

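The genes described here carry out mitosis: the kinetochore, the spindle checkpoint, the spindle and cytokinesis, together with the proliferation marker Mki67. They were chosen as the rows of the authors' table of significant changes whose symbol is one of 43 listed genes or starts with Cenp, with the kinesin motors left out. That gave 45 rows for 42 genes, out of 964 rows in the authors' table and 31648 rows on the array. All 45 are among the 513 rows listed there as higher, which are 1.62% of the array. Of the 43 listed genes 41 had a row, and Cenpc1 came in through its name. Cdc20 and Cks2 had no row in the table and were not analysed here. The authors' table was made from the same comparison of tumour-bearing mice with controls, by the authors' own significance test at p = 0.001 and a minimum change of 2-fold. The differences between the groups are therefore a description of genes already selected for change, and no p-value is given for them. Cenpq lay just inside the 2-fold limit, at a difference of 1.02 on the log2 scale. Rows just outside it have no gene name in the files, so no value can be given for that side.

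The cells were splenocytes sorted by flow cytometry for CD11b and Gr1, markers that neutrophils, inflammatory monocytes and immature myeloid cells carry. There were 6 samples of single tumour-bearing mice of genotype L2-Cre;p120f/f, numbered 1 to 6. The other 3 samples were control pools, and each pool combined 3 mice without tumours, of genotype L2-Cre;p120+/f. Both groups thus carried L2-Cre, a Cre active in squamous lining cells of the mouth and oesophagus, and at least 1 floxed allele of p120 catenin, on a mixed C57BL/6x129 background. Age is not usable from the labels, because the age, tissue and genotype fields describe embryonic limbs and contradict the titles. Tumour, p120 genotype and pooling change together between the groups and cannot be told apart. Itgam, Ly6g and the Ly6c genes, which encode the sorted antigens, had no named row and were not analysed here. Expression is given on the log2 scale. A difference is the mean of the 6 mice minus the mean of the 3 pools, with the standard error (SE) of a limma fit across all rows.

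A cell enters mitosis when cyclin B binds and activates the kinase Cdk1. Kinetochores then assemble on the centromeres and attach the chromosomes to spindle microtubules. The spindle checkpoint holds the anaphase-promoting complex inactive until every kinetochore is attached, after which cyclin B and securin are destroyed, the chromosomes separate and the cell divides. In the neutrophil lineage, division is confined to precursors up to the myelocyte stage, and mature neutrophils do not divide. Most mitosis genes are transcribed in late S, G2 and M phase, and many carry a CHR (cell cycle genes homology region) element and CCAAT boxes in their promoters.

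All 42 genes were higher in the tumour-bearing mice, by 1.02 to 2.48 on the log2 scale (2.03-fold to 5.57-fold), with a median of 1.89 (3.71-fold). The median over all rows was 0.02. At an adjusted p under 0.05 limma called 42 of 42 genes higher, where 14.3% of all rows were called higher and 23.2% changed in either direction, and in all 42 the lowest mouse lay above the highest pool, as it did for 15.4% of all rows. Because the members come from the authors' selection on this contrast, nothing is read from either count. The distance between the lowest mouse and the highest pool ran from 0.77 for Cenpq to 2.09 for Prc1. The difference reached 2 or more in 17 genes and was below 1.5 in 10. In bulk samples of this kind, a larger share of dividing cells and more mitotic RNA per cell cannot be told apart.

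**Figure D1:**
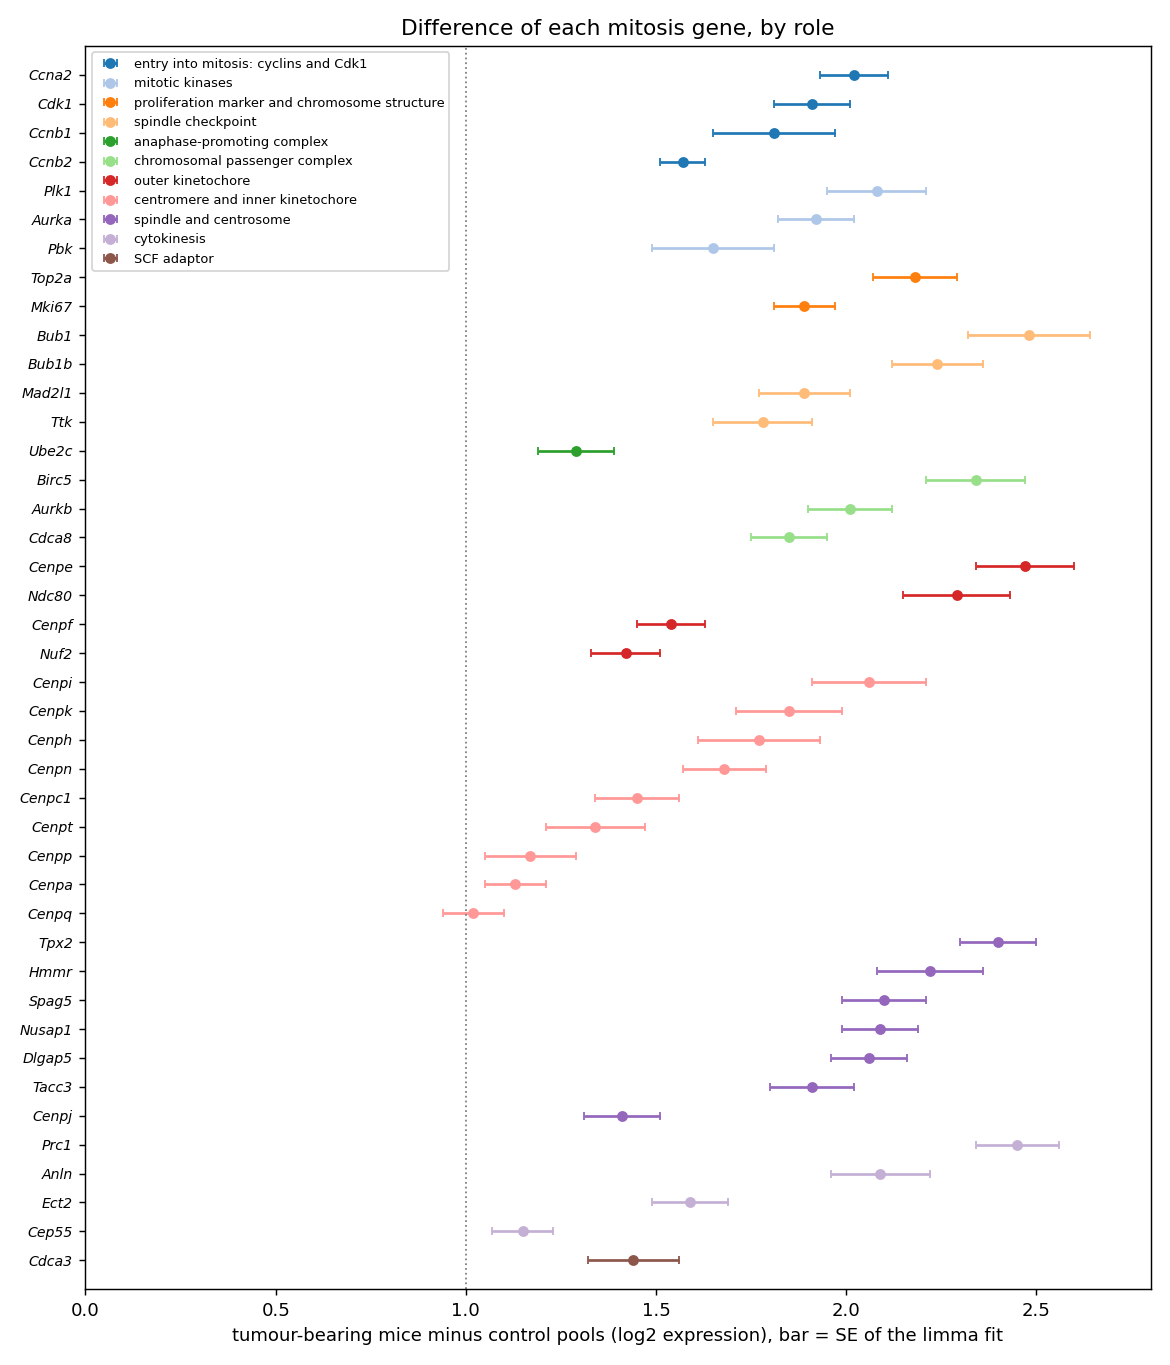
Difference between 6 tumour-bearing mice and 3 control pools on the log2 scale (horizontal axis) for each of the 42 genes (vertical axis), with bars for the SE of the limma fit and colours for the role. The dotted line marks the authors' 2-fold limit; Bub1, Cenpe and Prc1 lie farthest to the right and Cenpq is nearest to the line.

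The promoters were searched for motifs that many mitosis genes are known to carry. The letters were not used to choose the genes, but a high share among mitosis genes is not independent of that choice. RefSeq promoter windows of build GRCm38.p6, from 250 bases before to 50 bases after the start of the gene, were found for 37 of the 42 genes. Pbk, Ccna2, Dlgap5, Aurkb and Tpx2 had no entry. Letters of the CHR element (TTTGAA or TTCGAA), of the CCAAT box (CCAAT) and of an E2F site (TTCCCGC and its variants with letters TTGGCGC, further TTCGCGC, and lastly TTGCCGC) were searched on both strands. The 10 stretches below are printed to show the CHR and CCAAT letters and their spacing, 5′ to 3′ on the strand of the gene, from 100 bases before the start to 30 bases from it. Capitals mark these letters, read on either strand. The first 8 were chosen, with the matches known, because they hold CHR letters and a CCAAT box, and Birc5 and Mad2l1 because they hold neither:
Bub1 (chr2:127831830-127831959, minus strand): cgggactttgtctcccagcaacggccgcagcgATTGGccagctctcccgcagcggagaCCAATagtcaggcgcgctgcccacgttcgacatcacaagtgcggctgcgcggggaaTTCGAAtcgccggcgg
Prc1 (chr7:80294351-80294480, plus strand): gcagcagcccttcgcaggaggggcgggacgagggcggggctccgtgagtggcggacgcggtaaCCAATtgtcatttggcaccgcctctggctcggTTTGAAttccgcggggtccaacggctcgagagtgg
Top2a (chr11:99024160-99024289, minus strand): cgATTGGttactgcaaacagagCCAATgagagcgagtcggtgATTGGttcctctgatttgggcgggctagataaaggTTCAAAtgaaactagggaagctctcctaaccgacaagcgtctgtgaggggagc
Cdk1 (chr10:69352883-69353012, minus strand): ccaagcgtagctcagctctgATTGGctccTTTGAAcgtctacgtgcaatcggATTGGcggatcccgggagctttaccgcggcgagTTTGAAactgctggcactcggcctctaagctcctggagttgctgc
Ccnb2 (chr9:70421525-70421654, minus strand): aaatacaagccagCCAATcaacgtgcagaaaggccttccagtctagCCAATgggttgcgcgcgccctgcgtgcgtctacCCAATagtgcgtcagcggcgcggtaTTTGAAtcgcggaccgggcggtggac
Ttk (chr9:83834589-83834718, plus strand): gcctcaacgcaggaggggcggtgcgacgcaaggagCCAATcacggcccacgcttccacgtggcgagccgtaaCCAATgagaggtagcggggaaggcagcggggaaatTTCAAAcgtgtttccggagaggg
Cenpa (chr5:30666786-30666915, plus strand): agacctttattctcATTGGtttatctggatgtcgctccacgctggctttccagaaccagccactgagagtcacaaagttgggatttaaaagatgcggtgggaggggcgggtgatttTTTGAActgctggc
Ube2c (chr2:164769829-164769958, plus strand): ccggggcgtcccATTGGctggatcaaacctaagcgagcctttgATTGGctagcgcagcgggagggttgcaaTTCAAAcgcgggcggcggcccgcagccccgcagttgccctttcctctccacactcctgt
Birc5 (chr11:117849137-117849266, plus strand): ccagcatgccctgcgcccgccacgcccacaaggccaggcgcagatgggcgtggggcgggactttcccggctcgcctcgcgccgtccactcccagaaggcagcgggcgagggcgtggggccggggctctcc
Mad2l1 (chr6:66535121-66535250, plus strand): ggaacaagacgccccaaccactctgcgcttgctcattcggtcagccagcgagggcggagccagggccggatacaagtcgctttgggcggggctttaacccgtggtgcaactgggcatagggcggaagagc

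With the first base of the gene counted as 1 and the base before it as -1, the CHR letters of the printed stretches begin at -5 in Prc1, at -23 in Top2a and at -29 in Ube2c. In those of Ccnb2, Ttk, Bub1 and Cenpa they begin after the start, at 5, 8, 15 and 17. Farther upstream, Top2a has CHR letters also at -179, -140 and -120, and Ccnb2 at -167. Ccnb2 has CCAAT boxes at -87, -54 and -21. The printed Cdk1 stretch has CHR letters at -71 and -15 and reversed CCAAT boxes at -80 and -48. Birc5 and Mad2l1 have no CHR or CCAAT match in the whole window, which says only that these letters are not in it.

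Over the whole window CHR letters stood in 22 of 37 genes (59.5%), against 21.7% of all 27025 genes with a window and 20.2% of 17492 protein-coding genes. All 22 also had a match in the stretch from 100 bases before to 50 bases after the start, where the share of all genes was 9.87%. That narrower stretch was set after the positions had been seen. In 16 genes a CHR match began within the 50 bases after the start. CCAAT boxes stood in 26 of 37 genes (70.3%, against 41.1% of all genes), and both motifs together in 19 (51.4%, against 8.61%). E2F letters were in 10 of 37 (27.0%, against 10.9% of all genes and 13.7% of protein-coding genes). In 1 window CHR letters overlapped a CCAAT box, and in 3 windows E2F letters did. Among these 3 are both windows of Ect2, which hold the same place. The 22 genes with CHR letters near the start had a median difference of 1.90 between the groups, and the 15 without had 1.81, with ranges that overlap nearly throughout (1.13 to 2.48 and 1.02 to 2.47). These are shares of letters, and factor binding was not measured.

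**Figure D2:**
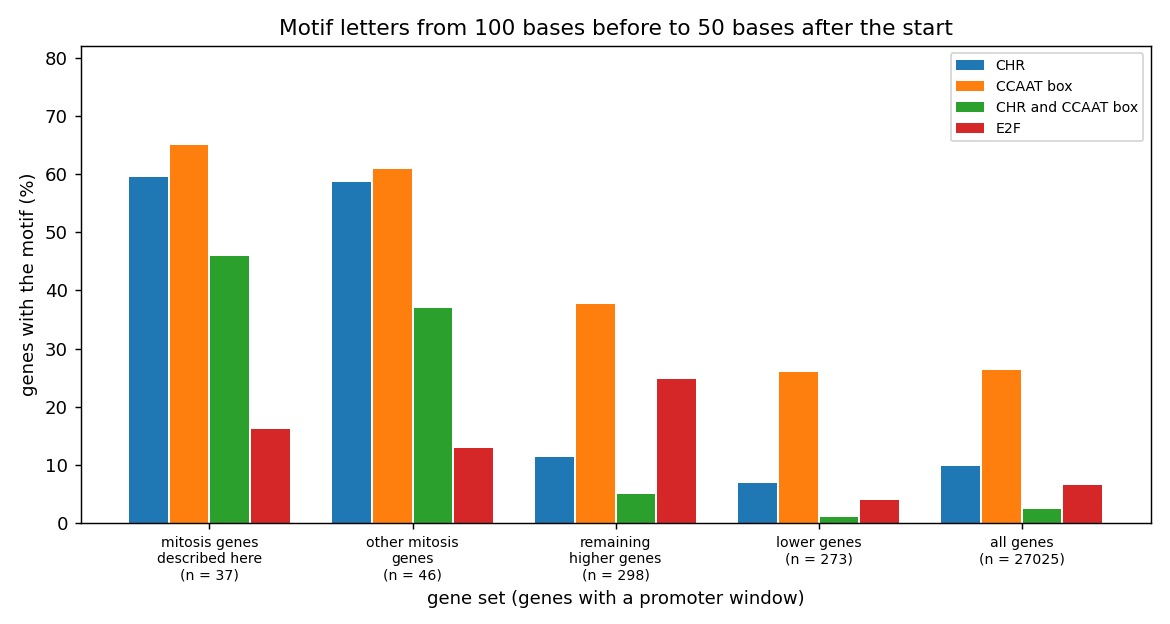
Percentage of genes (vertical axis) with CHR, CCAAT, both or E2F letters from 100 bases before to 50 bases after the start, for 5 gene sets (horizontal axis, with the number of genes that have a window). CHR letters stand in 59.5% of the 37 mitosis genes described here and 58.7% of 46 other mitosis genes, and in 9.87% of all genes. The stretch was set after the positions of the matches had been seen. From 250 bases before the start these shares were 59.5%, 67.4% and 21.7%.

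Among the genes of mitotic entry, Ccna2, the cyclin of S and G2 phase, stood at 7.70, 7.63 and 7.90 in pools 1 to 3, and between 9.60 and 9.92 (median 9.75) in the 6 mice. Its difference was 2.02 ± 0.09 (SE). Cdk1, the kinase that drives entry into mitosis and is written Cdc2a in the file, was at 6.63, 6.41 and 6.68 in the pools and from 8.27 to 8.69 (median 8.50) in the mice. The lowest mouse was 1.59 above the highest pool, and the difference was 1.91 ± 0.10 (SE). The B-type cyclins that activate Cdk1 differed by 1.81 (Ccnb1) and 1.57 (Ccnb2). The 4 genes thus lay between 1.57 and 2.02. Cdca3, known as a trigger of mitotic entry that works with an SCF ubiquitin ligase, was at 6.49, 6.48 and 6.75 in the pools and from 7.70 to 8.23 (median 8.06) in the mice, a difference of 1.44 ± 0.12 (SE).

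Mki67, which encodes the Ki-67 protein that coats mitotic chromosomes and is absent from resting cells, was at 10.14, 10.06 and 10.37 in the pools. In the mice it ran from 11.97 to 12.24 (median 12.10), and the difference was 1.89 ± 0.08 (SE). Top2a, the topoisomerase that untangles sister chromatids, was at 8.30, 8.03 and 8.51 in the pools and from 10.33 to 10.67 (median 10.44) in the mice. Pool 2 was the lowest and mouse 1 the highest for both genes. The difference of Top2a was 2.18 ± 0.11 (SE).

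Of the mitotic kinases, Plk1, which acts at centrosomes, kinetochores and the midbody, stood at 8.70, 8.49 and 9.04 in the pools and from 10.62 to 11.06 (median 10.84) in the mice, a difference of 2.08 ± 0.13 (SE). Aurka, the kinase of centrosome maturation, stood at 7.01, 7.11 and 7.29 in the pools and from 8.84 to 9.24 (median 9.07) in the mice, a difference of 1.92 ± 0.10 (SE). The lowest mouse was above the highest pool by 1.58 for Plk1 and 1.55 for Aurka. Pbk, a mitotic kinase also called TOPK, differed by 1.65 and had the widest spread among the pools (SD 0.33, n = 3).

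The spindle checkpoint genes included the highest difference of all. Bub1, a kinase that recruits checkpoint proteins to unattached kinetochores, was at 6.70, 6.30 and 6.87 in the pools and from 8.89 to 9.35 (median 9.07) in the mice, a difference of 2.48 ± 0.16 (SE). Bub1b, which encodes the checkpoint protein BubR1, was at 7.36, 7.14 and 7.52 in the pools and from 9.43 to 9.84 (median 9.54) in the mice, a difference of 2.24 ± 0.12 (SE). In both genes mice 5 and 6 were lowest, each at 8.89 for Bub1 and 9.43 for Bub1b after rounding, and pool 2 was the lowest pool. Mad2l1, whose product binds and inhibits Cdc20, differed by 1.89, and Ttk, the kinase Mps1 that starts checkpoint signalling, by 1.78.

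Ube2c is the ubiquitin-conjugating enzyme of the anaphase-promoting complex, the target of the checkpoint. It was at 6.67, 6.95 and 7.02 in the pools and from 7.95 to 8.33 (median 8.20) in the mice, and its difference of 1.29 ± 0.10 (SE) was smaller than that of each of the 4 checkpoint genes. The chromosomal passenger complex corrects faulty attachments. Its survivin subunit gene Birc5 was at 6.77, 6.55 and 7.13 in the pools and from 9.00 to 9.39 (median 9.11) in the mice, a difference of 2.34 ± 0.13 (SE). Aurkb, its kinase, was at 7.65, 7.42 and 7.70 in the pools and from 9.36 to 9.82 (median 9.59) in the mice, a difference of 2.01 ± 0.11 (SE). Cdca8 (borealin) differed by 1.85. Incenp, the scaffold subunit of the complex and not among the 42 genes, differed by 1.61 ± 0.10 and was looked at after its value had been seen. The 4 subunits thus ranged from 1.61 to 2.34.

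At the outer kinetochore, which meets the microtubules, Cenpe, a plus-end-directed motor, was at 6.60, 6.25 and 6.79 in the pools and from 8.84 to 9.28 (median 9.01) in the mice, a difference of 2.47 ± 0.13 (SE). Ndc80, the microtubule-binding subunit of the complex of that name, was at 5.07, 5.05 and 5.47 in the pools and from 7.31 to 7.85 (median 7.43) in the mice, a difference of 2.29 ± 0.14 (SE). Its dimer partner Nuf2 differed less, by 1.42 ± 0.09. The other 2 subunits of the complex, Spc24 (1.18 ± 0.12) and Spc25 (1.26 ± 0.10), were looked at after their values had been seen. Cenpf, a large protein of the corona, differed by 1.54.

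The 9 genes of the centromere and the inner kinetochore ranged from 1.02 to 2.06 in their difference, with a median of 1.45. The other 33 genes had a median of 1.92. Cenpi was at 5.83, 5.53 and 5.71 in the pools and from 7.53 to 8.17 (median 7.67) in the mice, a difference of 2.06 ± 0.15 (SE). Cenpk was at 4.99, 4.71 and 4.94 in the pools and from 6.47 to 7.03 (median 6.69) in the mice, a difference of 1.85 ± 0.14 (SE). Together with Cenph (1.77), whose product joins these in the CENP-H/I/K complex, they were the highest of the inner kinetochore in the rows used. Cenpn, which recognises the centromeric nucleosome, followed at 1.68, then Cenpc1, which links that nucleosome to the outer kinetochore, at 1.45 and Cenpt, another such link, at 1.34. Cenpp (1.17) and Cenpq (1.02), subunits of the CENP-O complex, and Cenpa (1.13), the centromeric histone H3, were lowest of the 9 genes. Of the 10 genes below 1.5, these and Cenpt and Cenpc1 made 5. Cenpu, another CENP-O subunit, was listed with the other mitosis genes and is not among the 9. It differed by 1.61 ± 0.13 and was looked at after its value had been seen. The low values thus did not extend to every subunit of the CENP-O complex. No test of the difference between roles was made, since array rows differ in their response.

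Some of these values rest on 1 row among several. Cenpa had a further row, under a non-RefSeq accession, with a difference of 1.51 ± 0.09 against 1.13 ± 0.08. Cenpi had 2 further rows under 1 non-RefSeq accession, with differences of 1.70 ± 0.18 and 1.24 ± 0.20. The row of highest mean was used for each gene, and the order given for the inner kinetochore depends on it. With the mean over the rows of a gene, Cenpi differed by 1.667, below Cenpn at 1.680. Cenpa then differed by 1.318, still below Cenpt at 1.338. The pool means of Ccnb1, Ndc80, Cenpi, Cenpk, Cenph and Hmmr lay under the median of each of the arrays. Whether these 6 rows were above background was not assessed, which leaves the size of their differences uncertain.

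On the spindle, Tpx2, which activates Aurora A and nucleates microtubules near the chromosomes, was at 7.37, 7.27 and 7.59 in the pools and from 9.61 to 10.04 (median 9.82) in the mice, a difference of 2.40 ± 0.10 (SE). Hmmr, a microtubule-associated protein that helps place Tpx2, was at 5.80, 5.47 and 5.81 in the pools and from 7.72 to 8.27 (median 7.87) in the mice, a difference of 2.22 ± 0.14 (SE). In both, mouse 1 was highest and mouse 6 lowest. Spag5 (astrin, 2.10), Nusap1 (which bundles spindle microtubules, 2.09), Dlgap5 (HURP, which stabilises kinetochore fibres, 2.06) and Tacc3 (which cross-links these fibres, 1.91) lay close together. Cenpj, a centriole assembly factor despite its name, was apart at 1.41.

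In cytokinesis, Prc1, which bundles the microtubules of the central spindle, was at 7.12, 6.94 and 7.33 in the pools and from 9.42 to 9.79 (median 9.56) in the mice, a difference of 2.45 ± 0.11 (SE). Anln, the scaffold of the contractile ring, was at 7.65, 7.37 and 7.84 in the pools and from 9.52 to 9.96 (median 9.67) in the mice, a difference of 2.09 ± 0.13 (SE). Ect2, the exchange factor that activates RhoA at the cleavage furrow, differed by 1.59. Cep55, which recruits the abscission machinery to the midbody at the end of division, differed by 1.15. The order of the 4 genes was Prc1, Anln, Ect2 and Cep55.

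**Figure D3:**
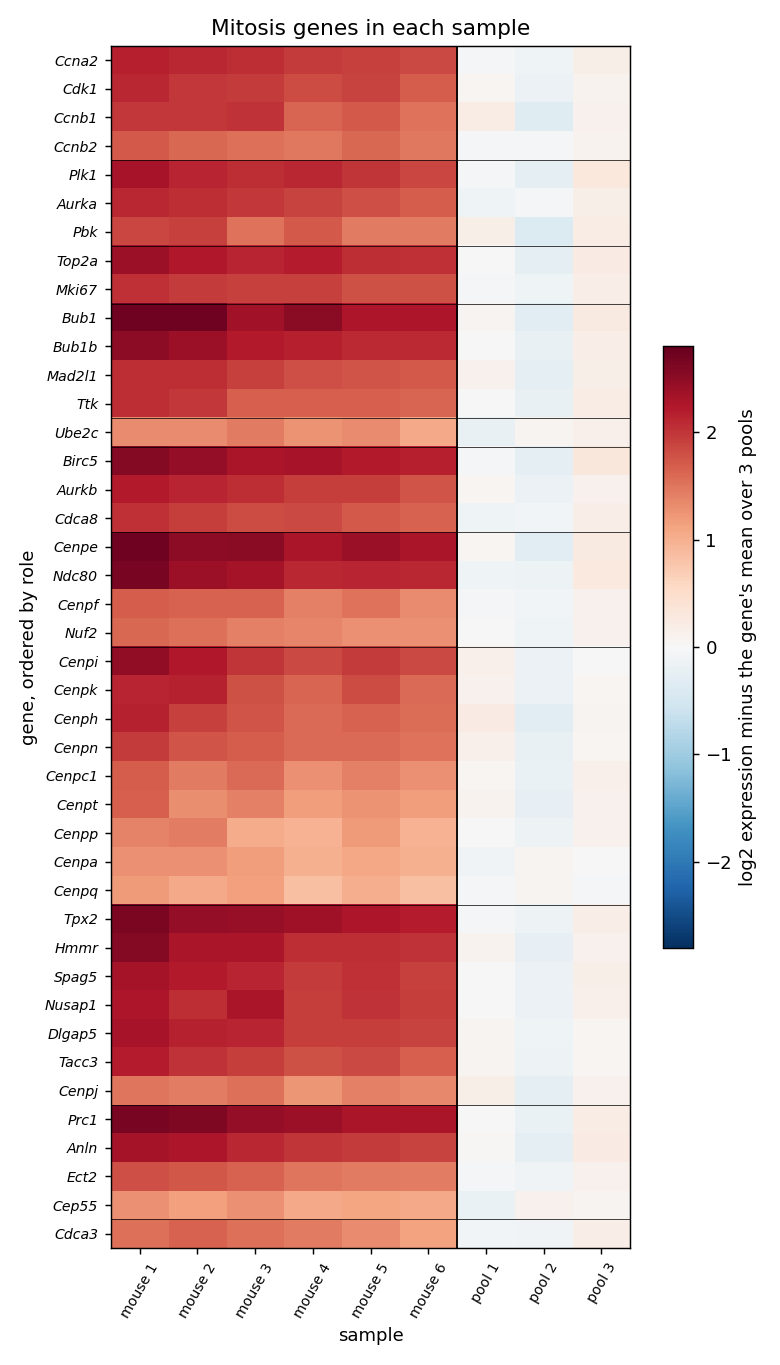
Log2 expression of each of the 42 genes (rows, ordered by role) in each of the 9 samples (columns), as the difference from the gene's mean over the 3 pools (colour scale). All 6 mice are above all 3 pools in every row, and in most rows mouse 1 is the darkest of the mice and pool 2 the bluest of the pools.

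Among samples of the same group the genes moved together. The mean over the 42 genes was 8.91, 8.80, 8.72, 8.59, 8.60 and 8.51 in mice 1 to 6 and 6.87, 6.69 and 7.0 in pools 1 to 3. The mice spanned 0.40 and the pools 0.30, and 1.51 separated the lowest mouse from the highest pool. Mouse 1 had the highest value among the mice in 30 of 42 genes, where it was highest in 21.2% of all rows that varied. Mouse 6 was lowest, or tied for lowest, in 41 of 42, against 20.5% of all rows. Among the pools, pool 2 was lowest in 35 of 42 genes (41.0% of all rows) and pool 3 highest in 31 (37.2%). The genes are not independent of each other, so these counts describe single mice and pools.

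The spread of a gene among the 6 mice had a median SD of 0.159, against 0.107 over all rows. Among the 3 pools, each of 3 mice, it was 0.165, against 0.0999. When each mouse's mean over the 42 genes was taken out, the median SD among mice came to 0.0677. Taking out each pool's mean in the same way brought that among pools to 0.0905. The authors' table lists 383 other genes as higher, outside the mitosis lists. Their median SD among mice was 0.179 before and 0.116 after removing their own sample means. Most of the spread of the mitosis genes among mice was thus shared by the genes. In 14 of the 42 genes 2 mice had the same value to 5 decimals, mice 4 and 6 in 11 and mice 5 and 6 in 3. These are 33.3% of the genes. Such ties occurred in 15.7% of the named rows and in 37.7% of all rows that varied, and where they come from was not tested. They limit what can be said of the order of mice 4, 5 and 6 and of the spread among the mice.

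The rest of the mitotic machinery was listed separately, with 88 symbols that include old and new names of some genes. Of these, 60 had a named row, and limma called 60 of 60 higher, against 14.3% of all rows, by 1.07 to 2.43 with a median of 1.66. The authors chose these rows on the same contrast too. Among the highest were the kinesins Kif4 (2.43 ± 0.13 SE), a chromosome-bound motor, Kif11 (2.43 ± 0.13), which pushes spindle poles apart, and Kif15 (2.39 ± 0.13), which assists it. Their mean over the 60 genes was 8.16 to 8.59 in the mice and 6.50 to 6.72 in the pools, with mouse 1 highest and mouse 6 and pool 2 lowest as for the 42 genes. CHR letters stood in 31 of the 46 with a promoter window (67.4%).

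Of 40 regulators of the cell cycle 15 had a named row. Limma called 13 higher and 2 lower, again among rows selected for change; 8.83% of all rows were called lower. Foxm1, a transcription factor that drives G2 and M phase genes, differed by 1.86 ± 0.08 (SE). Ccne2, a cyclin of the G1 to S transition, differed by 1.73 ± 0.13, Myb, a transcription factor of dividing progenitors, by 1.61 ± 0.14, and Rbl1 (p107), a pocket protein, by 1.49 ± 0.13. The 2 lower genes, Btg1 (-1.28 ± 0.08) and Btg2 (-1.11 ± 0.07), restrain proliferation in several cell types. Other restraining genes of the list were higher, among them Rbl1, Cdkn2c (1.47 ± 0.07), E2f7 (1.34 ± 0.09) and E2f8 (1.13 ± 0.05). Restraining genes thus did not move in 1 direction. Btg1, Btg2, Cdkn2c, E2f7 and E2f8 were named after their values had been seen.

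Markers of maturation moved with the same groups. Of 14 markers of neutrophil precursors 8 were named and all 8 were higher, with a mean of 10.86 to 11.45 in the mice and 8.0 to 8.50 in the pools. Mouse 1 was highest and mouse 6 lowest in this mean as in that of the mitosis genes, and pool 2 was the lowest pool in both. The order between these extremes differed. Mouse 3 (11.15) was below mice 4 (11.25) and 5 (11.27) in the precursor mean. In the mean of the mitosis genes it was above both (8.72 against 8.59 and 8.60). Of 15 markers of mature neutrophils 5 were named and all 5 were lower (mean 8.94 to 9.83 in the mice, 11.39 to 11.61 in the pools). Mouse 1 had the lowest of these means and mouse 5 the highest, with mouse 6 at 9.47. For monocytes and macrophages 5 of 14 markers had a named row, each of them lower (8.54 to 9.05 against 10.44 to 10.51), as were both named markers of 7 for dendritic cells (6.32 to 6.62 against 8.77 to 9.38). All these rows were selected by the authors on the same contrast, and limma called 14.3% of all rows higher and 8.83% lower. Markers that did not pass that selection have no named row and cannot be seen, so nothing is read from these counts. The part of these markers in the differences of the mitosis genes was not tested.

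Other cells that divide in the spleen had few named markers. Tfrc was the only named gene of 13 erythroid markers (7.05 to 7.96 in the mice, 5.99 to 6.33 in the pools), and Myb the only one of 10 for stem and progenitor cells (8.68 to 9.22 against 7.03 to 7.39). Dividing cells of many kinds also express Tfrc. Ms4a2 was the only one of 9 for eosinophils, basophils and mast cells (6.21 to 6.85 against 4.83 to 5.22), and Cd22, which was lower, the only one of 9 for B cells (6.01 to 6.40 against 8.18 to 8.58). The stem cell and B cell lists each count a gene under both of its names. T cell, natural killer cell, megakaryocyte and squamous epithelial lists had 0 named genes. These 4 genes were named after their values had been seen, and the part of such cells in the result was not tested.

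**Figure D4:**
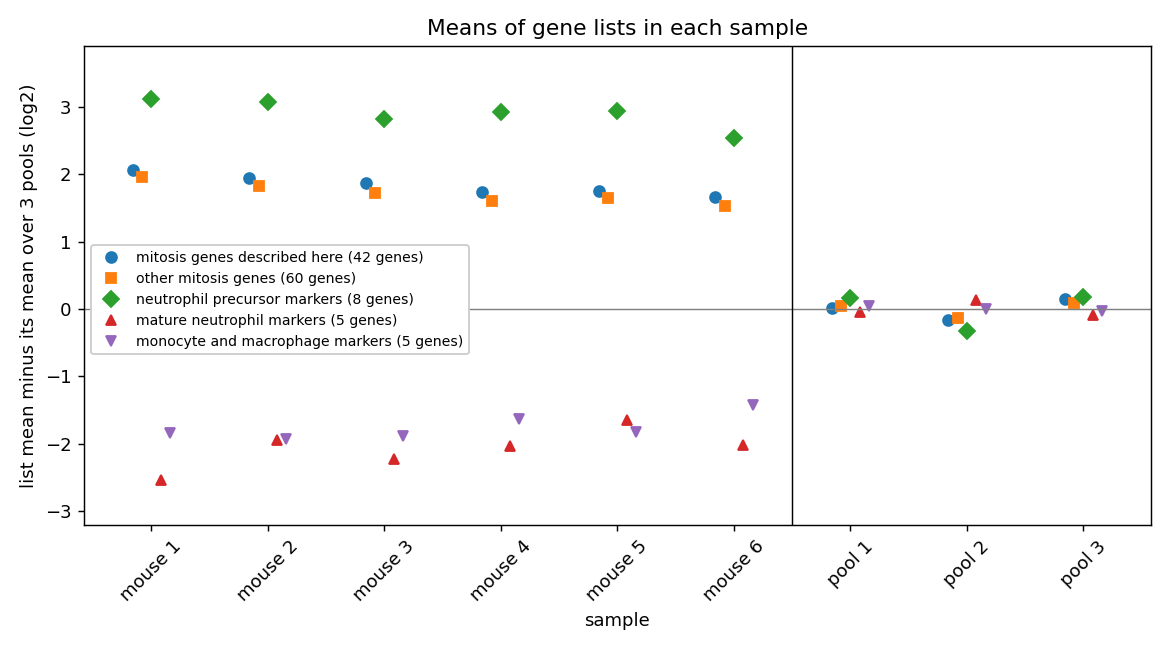
Mean log2 expression of 5 gene lists in each of the 9 samples (horizontal axis), as the difference from the list's mean over the 3 pools (vertical axis). The 42 mitosis genes and the 60 other mitosis genes lie close together above 0 in all 6 mice, precursor markers are higher still, and mature neutrophil and monocyte markers lie below 0.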

How the data were processed

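CD11b+Gr1+ splenocytes of 6 tumour-bearing mice and 3 control pools were profiled on Affymetrix arrays. The deposited values are log2 expression, 1 per row and sample, normalized by the authors; per the submitters' processing notes Affymetrix Power Tools, RMA, PLIER and build mm9 were used, without versions or roles. The log2 scale was read from the values (1.95 to 13.95). All 31648 rows were fitted with limma 3.58.1 in R 4.3.3 (tumour-bearing minus control, eBayes, two-sided, Benjamini-Hochberg over all rows, threshold 0.05). The script was first checked on 200 rows given known shifts. Gene names came from the authors' table, whose 964 rows were each tied to 1 array row by their 9 sample values; symbols were updated through RefSeq GRCm38.p6, and 81 rows kept the file's symbol. Other array rows are unnamed here. For a gene with several rows that of highest mean was used. Values by sample are given for Mki67, Top2a, Cdk1 and the 2 genes of each role with the largest difference, and the 4 genes of largest difference of each of 2 further lists are named, except 1 gene that is not reported here. The members, roles and lists were chosen with earlier results of these data known. Where nothing says that the mice or pools were handled separately, the fit measures only the spread between these samples. Arrays give no count of molecules, and their number limits the precision. Alternatives were other normalizations, tests, filters, a pseudocount, a replicate block and leaving out each sample.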

Additional observations from a re-analysis of the deposited data

How the results depend on the processing

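Under the 19 alternatives all 42 genes kept their direction and their call, in 798 of 798 values. Their median difference ran from 1.76 (pseudocount of 16) to 2.02 (replicate block). The authors had selected these genes and the other mitosis genes on the same samples and contrast. Calls kept in refits of that contrast are therefore no independent check, and nothing is read from their counts here. In the main fit 14.3% of all rows were called higher. The number of changed rows was 7333 as reported, 6611 with an equal-variance t-test and 3812 with a Welch test. It was 4289 with the replicate number as a block, which keeps only 3 mice and 3 pools. The block fit thus rests on fewer samples. The Welch test differs from the t-test only in not assuming equal spread in both groups. The deviations of mouse and pool of equal number correlated at 0.09, 0.01 and 0.02, and equal numbers were therefore not taken to pair samples. Leaving out 1 sample at a time gave 6201 to 7113 changed rows, median differences of 1.82 to 1.95, and 42 genes and 60 other mitosis genes called in each case. Under the other alternatives 58 to 60 of the other mitosis genes were called. Cenpq fell below the 2-fold limit after quantile normalization (0.97 on the log2 scale), with the pseudocount (0.89) and without mouse 1, mouse 3, pool 1 or pool 3 (lowest 0.98, without mouse 1). Cep55 fell below it with the pseudocount (0.98). Signal over background was not examined, which limits what can be said of the dimmest rows.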

Other observations

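The E2F letters had another distribution over the authors' genes than the CHR letters. From 250 bases before to 50 bases after the start they stood in 101 of 298 genes of the authors' table that were higher and on neither mitosis list (33.9%), in 10 of 37 of the mitosis genes described here (27.0%), in 8 of 46 other mitosis genes (17.4%) and in 27 of 273 lower genes (9.89%). Over all genes the E2F share was 10.9%, and over protein-coding genes 13.7%. For the CHR letters the shares were 21.1%, 59.5%, 67.4% and 20.1% in the same sets, and 21.7% over all genes. The motifs and sets were compared after the data had been seen, and no test was made.

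The 42 genes lie on 16 chromosomes. Cenph and Ccnb1 are the only members that are next to each other among protein-coding genes of the RefSeq annotation, on chromosome 13. Their differences were 1.77 and 1.81, near the median of 1.89 over the 42 genes. In both, pool 2 was the lowest pool and mouse 6 the lowest mouse. This order was not particular to the pair. Pool 2 was lowest in 35 of the 42 genes, and mouse 6 lowest or tied for lowest in 41.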
